A study of Mus musculus with 30 samples.

Results

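Livers of wild-type C57BL/6J (6J) mice were compared with livers of wild-type C57BL/6NJ (6NJ) mice, both 12 months old, by messenger RNA sequencing. The comparison held 6 of the 30 libraries of the series, namely 6J pools 1, 3 and 4 and 6NJ pools 1, 2 and 3. Each library was made from RNA pooled from 3 to 4 mice, so one library stands for several animals and the tests rest on differences among pools, not single mice. The pools were selected on 1 measured value: the remaining 6J pool, pool 2, was left out because its level of Acta1, the actin of skeletal muscle, was 778 CPM (counts scaled to a fixed library total), above a limit of 500 CPM. Acta1 lay between 0.607 and 0.969 CPM in the 3 pools kept, and it therefore describes the choice of libraries and supports nothing below. The series was built around A1cf, an RNA-binding cofactor of apolipoprotein B mRNA editing, and holds 4 pools of livers that carry an A1cf transgene (A1cf_Tg/+, here Tg) and 3 pools of livers without A1cf (A1cf_-/-, here KO). Cultured hepatocytes of the series enter no test, and their levels are given only beside intestinal genes. Its immunoprecipitation libraries enter no comparison here. The 6J and Tg livers were sequenced in one study, and the 6NJ and KO livers in another. Between 6J and 6NJ livers, substrain and sequencing study changed together and cannot be told apart. The same study difference holds between Tg and KO livers, whose substrain is not given here.

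C57BL/6J and C57BL/6NJ are sister substrains of the most used laboratory mouse, bred apart at different institutions. They differ by a limited set of fixed variants. The best known is a deletion within Nnt in 6J, the gene of nicotinamide nucleotide transhydrogenase, an enzyme of the inner mitochondrial membrane that uses the proton gradient to make NADPH. Nnt is strongly expressed in liver, and its loss has been studied for effects on redox balance and on insulin secretion.

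The 6J libraries held between 17044839 and 18133336 counts on genes, and the 6NJ libraries between 25888485 and 35365817. Over the group this sets a limit for a count of 0 (3 counts of the summed total) of 0.0569 CPM in 6J livers and 0.0315 CPM in 6NJ livers. A1cf, which neither substrain lacks, stood at 279, 216 and 218 CPM in 6J livers, against 237, 203 and 199 CPM in 6NJ livers. Alb, the defining gene of hepatocytes, took between 7.45% and 7.74% of counts in 6J livers and between 4.56% and 5.40% in 6NJ livers. It took between 4.37% and 5.03% in Tg livers and between 4.33% and 4.75% in KO livers. Y-linked Ddx3y was at 62.2, 71.3 and 68.3 CPM in 6J livers and at 48.3, 51.0 and 50.9 CPM in 6NJ livers. The excluded pool 2 had 0.198 CPM of Ddx3y and 935 CPM of Xist, while Xist was at most 2.35 CPM in the 6 pools compared. Pool 2 thus differed from them in sex-linked RNA, and every fit below that keeps it carries this difference too. The labels used here give no sex per pool. Values for 6J livers are given below in the order pool 1, pool 3, pool 4, and values for 6NJ livers in the order pool 1, pool 2, pool 3.

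Of 14811 genes with enough counts to test, 3228 (21.8%) differed at an adjusted p below 0.05 by edgeR's quasi-likelihood test with Benjamini-Hochberg adjustment. Of these, 1117 (7.54% of those tested) were higher and 2111 (14.3%) were lower in 6J livers. The share of higher genes among those called was 34.6%, but it was 47.3% with upper-quartile scaling (1706 higher, 1901 lower). The median log2 difference over all tested genes was -0.01, and its quartiles were -0.37 and 0.24. A total of 1581 called genes differed by less than 2-fold, 1010 by 2-fold to 8-fold, and 637 (4.3%) by at least 8-fold, of which 102 (0.689%) were higher and 535 (3.61%) lower in 6J livers. Testing against a change of 2-fold with edgeR's glmTreat left 974 genes (6.58%), 152 higher (1.03%) and 822 lower (5.55%). The 6 libraries did not overlap between the groups for 5879 genes (39.7%). At 0 in all 3 6J pools were 148 tested genes, and at 0 in all 3 6NJ pools were 19. The 8-fold line cut through a continuous range: Ndufab1 at a log2 difference of -3.02 and Hdac1 at -3.03 lay just inside, and Rpl37a at -2.999 just outside. Without 6NJ pool 2 the number of genes that differed was 1943.

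Known substrain genes were examined first. Of 11 genes listed for sequence or expression differences between 6J and 6N substrains, 5 had enough counts to test. None was higher and 3 were lower in 6J livers, which are Nnt, Wdfy1 and Nlrp12. The members were chosen as known substrain differences with earlier results of these data in view.

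Nnt (ENSMUSG00000025453, GRCm38 chr13:119335448-119408997, minus strand) stood at 56.8, 50.2 and 47.4 CPM in 6J livers, against 124, 106 and 108 CPM in 6NJ livers. The groups did not overlap, and Nnt RNA remained at a level well above 0 in every 6J pool. The log2 difference was -1.13 ± 0.12 (SE, adjusted p = 0.00011 by edgeR's quasi-likelihood test). Counts were deposited per gene, so the deleted exons could not be read apart from the rest. The neighbouring Paip1, which encodes a protein that binds poly(A)-binding protein and promotes translation, was at 47.8, 41.5 and 44.5 CPM in 6J livers and at 45.5, 47.8 and 52.1 CPM in 6NJ livers (log2 difference -0.12, adjusted p = 0.43). Paip1 was chosen after its values were seen. In livers with changed A1cf, Nnt had 69.6, 44.0, 41.5 and 45.7 CPM in Tg livers, sequenced with 6J. It had 130, 128 and 123 CPM in KO livers, sequenced with 6NJ.

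Wdfy1 (ENSMUSG00000073643, chr1:79702262-79776143), a WD-repeat protein of endosomes, was at 11.8, 10.2 and 10.3 CPM in 6J livers, against 27.0, 27.8 and 28.8 CPM in 6NJ livers. Its log2 difference was -1.37 ± 0.11 (adjusted p = 2.1e-05, edgeR), and every 6J pool lay below every 6NJ pool. Tg livers had 20.5, 8.04, 9.08 and 9.12 CPM of Wdfy1, against 29.6, 29.4 and 25.7 CPM in KO livers, so Tg pool 1 stood above the other Tg pools but below the KO pools.

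Nlrp12 (ENSMUSG00000078817, chr7:3221510-3249740), a cytosolic receptor of the NOD-like family that restrains inflammatory signalling, had no count in any 6J pool, against 13.6, 28.8 and 50.6 CPM in 6NJ livers. This is at least 544-fold lower in 6J livers, taking 3 counts over the group as the limit. Nlrp12 was also at 0 in all 4 Tg pools and at 23.9, 35.8 and 23.8 CPM in KO livers. It lay within one of the genome spans described below, in which every tested gene was lower in 6J livers.

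The other members differed less or were too low to test. Cyfip2, a subunit of the WAVE complex that drives actin branching, was at 7.01, 4.58 and 5.05 CPM in 6J livers and at 3.4, 3.48 and 4.75 CPM in 6NJ livers. The groups overlapped, and the log2 difference of 0.51 ± 0.21 did not pass the test (adjusted p = 0.12, edgeR), though it did with all 14 liver libraries in one fit (0.0479). In livers with changed A1cf, Cyfip2 was at 23.3, 13.1, 15.4 and 16.4 CPM in Tg livers, against 4.41, 4.17 and 5.04 CPM in KO livers. Ide, the insulin-degrading enzyme, had 116, 102 and 99.8 CPM in 6J livers and 88.4, 85.6 and 106 CPM in 6NJ livers (adjusted p = 0.30). Entpd4, a Golgi nucleotidase, and its near copy Entpd4b had no count in any 6J or Tg pool. In 6NJ livers Entpd4 was at 0.232, 0.590 and 0.283 CPM and Entpd4b at 0.193, 0.619 and 0.283 CPM, levels too low for the test, and reads of the pair could be split between the copies. Fgfbp3 had counts in both groups but was too low to test, Crb1 had 1 count in 6J livers and 2 in 6NJ livers, and Gabra2 and Vmn2r65 had none.

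**Figure D1:**
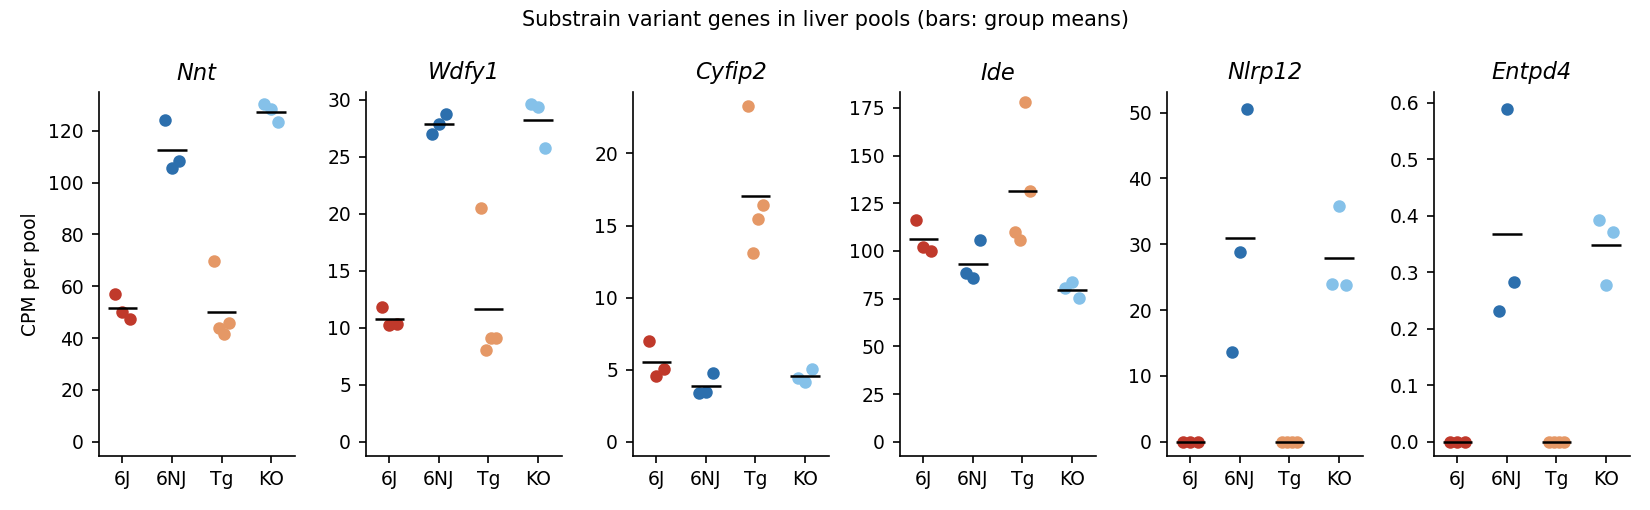
Level (CPM) of 6 substrain genes in each liver pool (points) with group means (bars), for 6J, 6NJ, Tg and KO livers. Nnt and Wdfy1 were lower in all 3 6J pools than in all 3 6NJ pools, Nlrp12 and Entpd4 had no count in 6J livers, and Cyfip2 and Ide overlapped between 6J and 6NJ livers.

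Some of the largest differences were not scattered over the genome but lay side by side. The deposited feature table lists, beside the chromosomes, 13 patch scaffolds of GRCm38 with 174 genes, which are alternative versions of stretches of a chromosome issued by the genome's curators. By gene length, strand and start, 11 scaffolds could be placed on a chromosome, and 8 of the spans they cover held tested genes. All 46 tested genes in these spans, 36 of them protein-coding, were lower in 6J livers, where 14.3% of all tested genes were. The median log2 difference in the spans was -9.44, against -0.01 over all tested genes, and 36 of the 46 genes had no count in any 6J pool. On the scaffolds themselves the 6J pools had between 25 and 52 counts (pool 2 included) and the Tg pools between 39 and 56, while every 6NJ and KO pool had 0. The submitters' processing notes give the same tools and genome build for all libraries, but the sources used here do not give the alignment index or the setting for reads that fit several places in either study. Counts on patch scaffolds and counts in the spans both differed between the 6J and 6NJ pools, in opposite directions. The part of read processing in the values below was not tested. Genes that most cells use were among those at or near 0 in 6J livers. The folds in the spans are given as differences between deposited counts.

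The span with the most tested genes was chr19:4035407-4233630, with 17 genes. Their summed level was 6.44 CPM in 6J livers, against 1147 CPM in 6NJ livers. Gstp1, a glutathione S-transferase of the pi class, had no count in 6J livers, against 626, 918 and 729 CPM in 6NJ livers, at least 13321-fold lower. Its copies Gstp2 and Gstp3 were at 0 in 6J livers too, and reads could be split among the 3 copies. Ppp1ca, a catalytic subunit of protein phosphatase 1 with no close copy by the measure used below, had no count in 6J livers, against 99.7, 87.9 and 96.2 CPM in 6NJ livers, at least 1663-fold lower. Coro1b, an actin-binding coronin, was at least 1174-fold lower and Cdk2ap2 at least 851-fold. One gene of this span kept counts: Tmem134 had 5.70, 7.11 and 6.51 CPM in 6J livers, against 74.4, 58.8 and 64.7 CPM in 6NJ livers.

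The flanks of the span did not share the loss. Ssh3, a slingshot phosphatase next to it, was at 14.1, 13.1 and 13.0 CPM in 6J livers and at 13.0, 11.3 and 11.1 CPM in 6NJ livers (log2 difference 0.18, adjusted p = 0.34). On the other side Ndufv1, a subunit of complex I at the core of its NADH site, had 165, 188 and 194 CPM in 6J livers, against 136, 126 and 117 CPM in 6NJ livers, a log2 difference of 0.53 (adjusted p = 0.016, and between 0.053 and 0.069 without 6J pool 3, 6J pool 4, 6NJ pool 2 or 6NJ pool 3 in turn). Flanking genes, like many of the members named in the spans, were chosen after their values were seen.

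**Figure D2:**
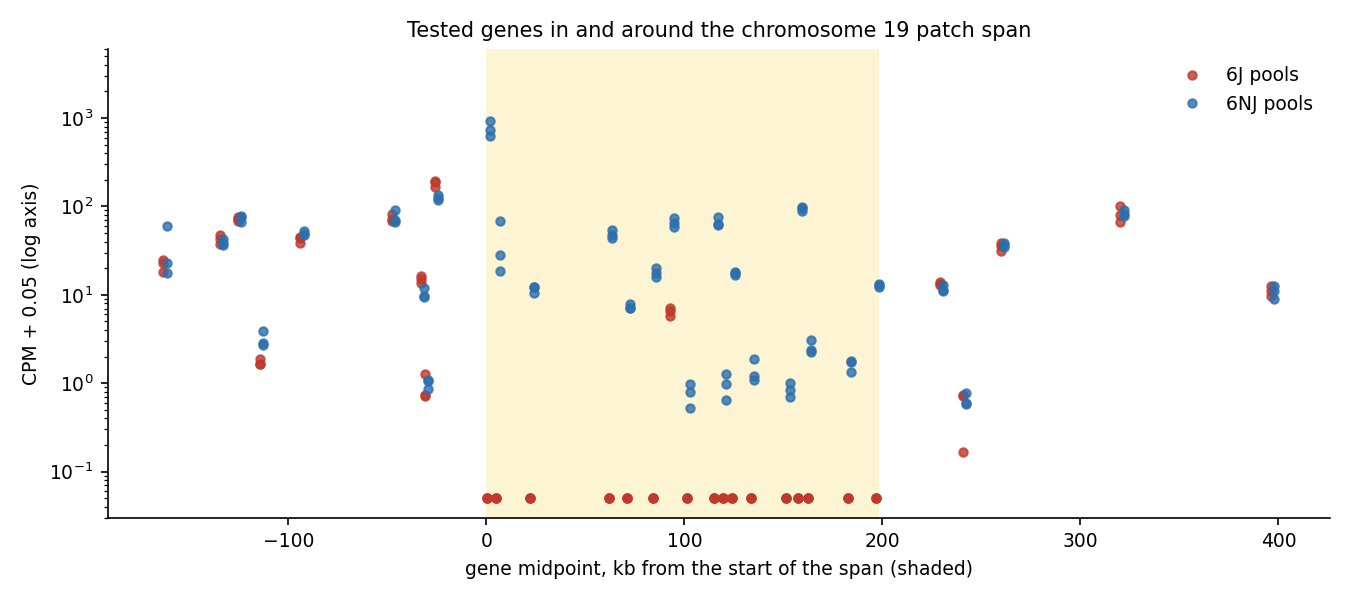
Level of each tested gene in each pool (CPM plus 0.05, log axis) against distance in kilobases from the start of the span on chromosome 19, for 6J and 6NJ livers, with the span shaded. Inside the span 16 of 17 tested genes sat at the floor in 6J livers, while genes on either side had counts in both groups.

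Other spans had the same pattern. On chr16:18220754-18479957, 9 genes summed to 15.4 CPM in 6J livers, against 733 CPM in 6NJ livers. Among them Txnrd2, the thioredoxin reductase of mitochondria, had 1 count in 6J livers, against 28.2, 25.5 and 21.6 CPM in 6NJ livers. Tango2 and Ranbp1 were at 0 in 6J livers, as was Dgcr8, the partner of Drosha in microRNA processing.

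On chr11:88047381-88295261, 4 genes were lower. Srsf1, a splicing factor of the SR family that most cells need, was at 0.171, 0.110 and 0.176 CPM in 6J livers, against 59.8, 67.6 and 80.3 CPM in 6NJ livers (log2 difference -8.79 ± 0.22, adjusted p = 2.3e-08). Its neighbours Vezf1, Cuedc1 and Mrps23 had at most 0.171 CPM in any 6J pool. The flanking Msi2, an RNA-binding protein, was at 36.0, 27.7 and 26.1 CPM in 6J livers and at 32.7, 31.1 and 35.4 CPM in 6NJ livers (adjusted p = 0.44).

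On chr7:3086001-3434183, 8 genes had no count in 6J livers, among them Nlrp12, the microRNA genes Mir291a, Mir292, Mir291b and Mir293, and Myadm, a membrane protein of myeloid cells. Myadm was at 43.0, 58.5 and 76.2 CPM in 6NJ livers, at least 1041-fold lower in 6J livers. The scaffold that covers this span carried most of the counts on patch scaffolds in 6J livers. On chr12:109452823-109690052, part of the imprinted Dlk1-Dio3 region, the maternally expressed noncoding RNAs Meg3 and Rian and the paternally expressed Rtl1 were lower. Meg3 was at 0.171, 0.0551 and 0.117 CPM in 6J livers, against 13.1, 9.29 and 11.3 CPM in 6NJ livers. The other 3 spans with tested genes, on chromosomes 4, 9 and 17, held 5 tested genes in all, and Pot1b, a telomere protein, was among those at 0 in 6J livers.

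The wider shift toward lower values in 6J livers followed how much of a gene's sequence occurs in other genes. For each gene, the share of 50-base words of its longest GENCODE M21 transcript that also occur in a transcript of another annotated gene was computed, since a read from such a stretch fits more than one gene. Copies that are not annotated were not searched. The sources used here do not say how such reads were counted in either study. Among 9325 tested genes with no shared word, 775 were higher and 714 lower in 6J livers, with a median log2 difference of 0.04. Among 667 genes with 20% to 50% of words shared, 16 were higher and 391 lower (median -0.96), and among 147 genes with over 90% shared, 2 were higher and 109 lower (median -3.40). Across 14708 genes Spearman's rho of the log2 difference with the shared share was -0.25, as a description over genes, which are not independent replicates. Of the 535 genes at least 8-fold lower, 249 were pseudogenes (46.5%) and 421 had over 5% of words shared (78.7%). Over all tested genes 4% were pseudogenes, and 2229 of the 14708 genes with a value (15.2%) had over 5% shared. Of the 102 genes at least 8-fold higher, 13 were pseudogenes and 21 had over 5% shared. Together with the patch spans, shared sequence covered 453 of the 535. The part of shared sequence in the differences was not tested.

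**Figure D3:**
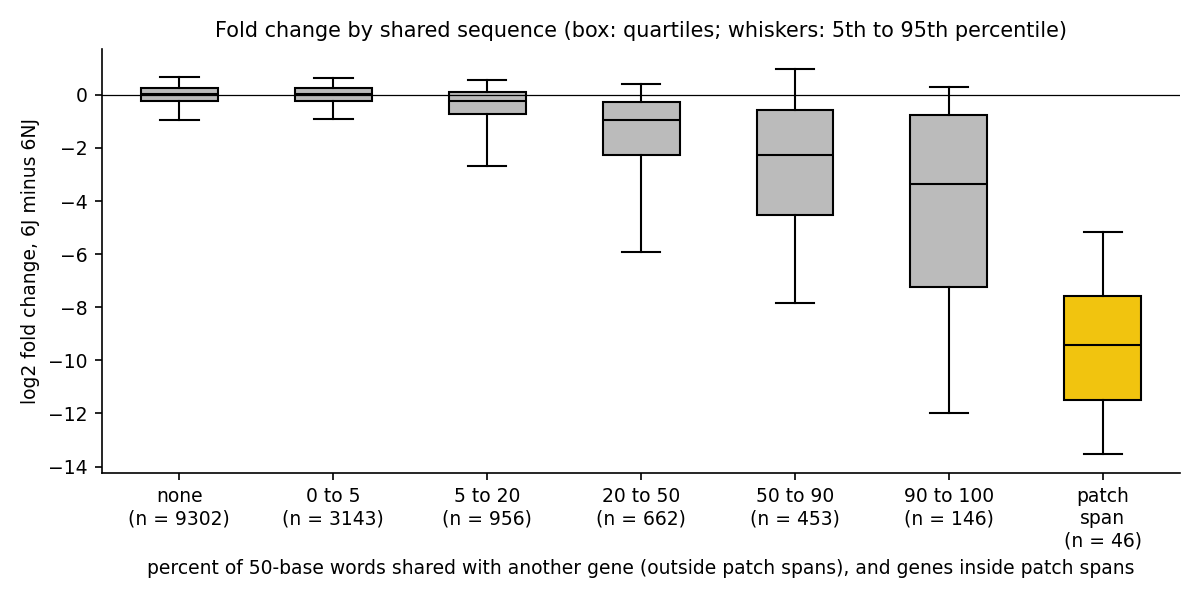
Log2 difference, 6J minus 6NJ, by the share of 50-base words that a gene has in common with another gene, outside patch spans, with genes inside patch spans at the right. Boxes show quartiles and medians and whiskers the 5th and 95th percentiles; the median falls below 0 in every class over 5% shared and is lowest in the patch spans.

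The genes of cytoplasmic ribosomal proteins, which have many processed pseudogenes, followed that gradient. Of 77 tested, 71 were lower in 6J livers and none was higher, with a median log2 difference of -3.21. The median was -0.41 over the 4 genes with at most 5% shared words, -1.70 over 20 genes with 5% to 20%, and -4.03 over 53 genes above 20%, all of which were lower. Ribosomal protein genes took between 0.209% and 0.250% of counts in 6J libraries (pool 2 included) and between 0.853% and 1.01% in 6NJ libraries. Rpl19 (chr11:98026710-98030492), a protein of the large subunit, was at 0.228, 0.386 and 0.469 CPM in 6J livers, against 104, 104 and 85 CPM in 6NJ livers. Rpl19-ps11, one of its pseudogenes, had 1 count in each 6J pool, against 2.16, 2.15 and 1.73 CPM in 6NJ livers. Matching stretches of both are shown from GENCODE M21 transcripts (GRCm38), 5′ to 3′, with the one base that differs in capitals, because they show how little separates the gene from its copy. The Rpl19 stretch is chr11:98028346-98028435 in exon 3 (plus strand), and the Rpl19-ps11 stretch is chr8:19493048-19493137 (plus strand).
Rpl19: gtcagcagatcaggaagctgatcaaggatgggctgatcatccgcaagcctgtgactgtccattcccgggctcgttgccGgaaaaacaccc
Rpl19-ps11: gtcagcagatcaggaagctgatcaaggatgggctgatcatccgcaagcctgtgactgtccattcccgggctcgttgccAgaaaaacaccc
Of the 539 words in the coding sequence of Rpl19, 489 occur in Rpl19-ps11.

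Some glycolytic genes were far lower as well. Gapdh, the glycolytic dehydrogenase often used to normalize expression, was at 22.4, 32.4 and 38.8 CPM in 6J livers, against 1201, 1078 and 1236 CPM in 6NJ livers (log2 difference -5.22 ± 0.23, adjusted p = 3.3e-07). All 950 words in its coding sequence occur in a processed pseudogene, Gm10359, which had no count in 6J livers and was too low to test, at 0.232, 0.206 and 0.113 CPM, in 6NJ livers. Pgk1 was at 8.95, 9.04 and 9.74 CPM in 6J livers, against 168, 161 and 169 CPM in 6NJ livers. Aldoa, an aldolase with 13.5% of words shared, was at 98.1, 86.7 and 111 CPM in 6J livers and at 99.3, 95.3 and 109 CPM in 6NJ livers, and Tpi1, the triose phosphate isomerase with 7.51% shared, had a log2 difference of -0.23; neither passed the test (adjusted p = 0.85 and 0.24). Of 27 glycolysis and gluconeogenesis genes tested, 4 were higher and 7 lower, and among the 18 of them that are protein-coding with at most 5% shared words, called unique below, 4 were higher and 1 lower. Rn7s1 and Rn7s2, RNA genes of the signal recognition particle with all words shared, were below 1 CPM in the 3 6J pools and between 1452 and 6578 CPM in 6NJ pools. Replication-dependent histone genes (24 tested, 1 higher, 16 lower, median -1.29) and major urinary proteins (18 tested, none higher, 13 lower, median -2.0) had mostly shared sequence as well: 20 of the 24 and all 18 had over 5% of words shared.

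Mitochondrially encoded genes split in opposite directions within one molecule. Of 15 on the list, 4 were higher, 7 were lower and 4 did not pass the test. mt-Co2, a subunit of cytochrome oxidase, had no count in 6J livers, against 88.3, 110 and 70.5 CPM in 6NJ livers, at least 1572-fold lower. mt-Atp6, a subunit of ATP synthase, was at least 1332-fold lower, and mt-Nd4l and mt-Atp8 were also at 0 in 6J livers. mt-Co3 had 1 count in 6J livers, against 59.1, 60.1 and 43.9 CPM in 6NJ livers. mt-Nd3, a subunit of complex I, was at 0.171, 0.0552 and 0.293 CPM in 6J livers, against 11.5, 11.6 and 7.55 CPM in 6NJ livers. For mt-Co2, mt-Atp6, mt-Co3, mt-Nd4l and mt-Nd3 nearly all words occur in another annotated gene, and for mt-Atp8 none. Copies that are not annotated were not searched, so the value for mt-Atp8 does not show that it lacks a copy. A large shared share did not always go with a near loss of counts: mt-Nd4 had 62.2% of words shared and mt-Co1, a subunit of cytochrome oxidase, 51.1%. mt-Co1 was at 10626, 12464 and 12093 CPM in 6J livers, against 15694, 15767 and 19946 CPM in 6NJ livers (log2 difference -0.54, adjusted p = 0.028, and between 0.0506 and 0.0778 without 6J pool 1, 6J pool 4, 6NJ pool 2 or 6NJ pool 3 in turn). A nuclear copy of mt-Co2 on chromosome 1 is shown because it has no difference over the stretch printed. The mt-Co2 stretch is MT:7013-7102 (plus strand) and the stretch of Gm28661, a gene model in the copy, is chr1:24615476-24615565 (minus strand), both in GRCm38.
mt-Co2: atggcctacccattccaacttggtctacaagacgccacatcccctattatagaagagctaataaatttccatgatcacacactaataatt
Gm28661: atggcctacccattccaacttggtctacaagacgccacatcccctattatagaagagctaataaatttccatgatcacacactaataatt
All 632 words in the coding sequence of mt-Co2 occur in Gm28661. Gm28661 itself was at 0.0570, 0 and 0 CPM in 6J livers, against 84.4, 105 and 78.2 CPM in 6NJ livers.

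The 2 ribosomal RNAs of mitochondria went the other way. mt-Rnr2 was at 11436, 12077 and 10517 CPM in 6J livers, against 4.44, 16.7 and 6.31 CPM in 6NJ livers. mt-Rnr1 was at 2137, 2489 and 2217 CPM in 6J livers, against 4.40, 16.9 and 4.89 CPM in 6NJ livers. Neither had over 5% of words shared, and the Tg and KO livers showed the same split, with mt-Rnr2 between 11030 and 24553 CPM in Tg livers and between 4.63 and 91.0 CPM in KO livers. mt-Nd6, a subunit of complex I encoded on the other strand, had 1310, 1156 and 1043 CPM in 6J livers, against 405, 430 and 505 CPM in 6NJ livers (log2 difference 1.39 ± 0.13, adjusted p = 6.2e-05). mt-Nd4 had 3889, 4561 and 5258 CPM in 6J livers and 3768, 4134 and 4213 CPM in 6NJ livers (adjusted p = 0.43). The mitochondrial share of all counts lay between 5.59% and 6.14% in 6J libraries, pool 2 included, and between 4.46% and 5.15% in 6NJ libraries.

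To set shared sequence aside, 11353 tested genes (76.7% of all) were taken as unique: protein-coding, encoded in the nucleus, outside patch spans and with at most 5% of words shared. Of these, 973 (8.57%) were higher and 816 (7.19%) lower in 6J livers, with a median log2 difference of 0.06. Fitted on their own, 521 unique genes were higher and 830 lower, with a median of -0.00236, so the balance of directions depended on the fit. Most differences in the fit of all genes were small, since 1272 of the 1789 unique genes called there differed by less than 2-fold. At least 8-fold higher were 61 and at least 8-fold lower 51.

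**Figure D4:**
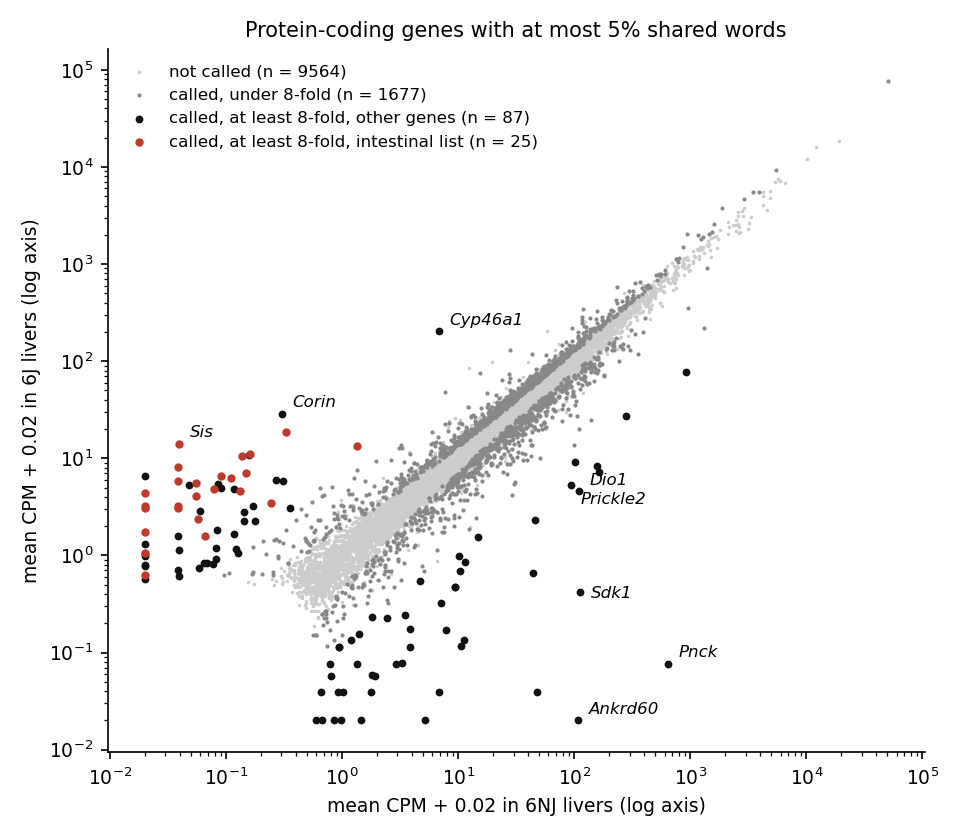
Mean level of 11353 unique protein-coding genes in 6J livers against 6NJ livers (CPM plus 0.02, log axes), with called genes in dark grey, those at least 8-fold different in black and intestinal genes among them in red. Most genes lie on the diagonal; 25 of the 61 genes at least 8-fold higher in 6J livers belong to the intestinal list.

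Genes of the small intestinal epithelium stood out among the rises. A list of 43 such genes was written after values had been seen, so its counts describe and do not test. Of 35 tested, 30 were higher in 6J livers and none was lower, with a median log2 difference of 6.20. Sis, the sucrase-isomaltase of the brush border, was at 12.5, 11.5 and 18.4 CPM in 6J livers, against 0, 0.0590 and 0 CPM in 6NJ livers. This is 742 counts in 6J livers against 2 in 6NJ livers, 670-fold higher with a 95% exact counting interval of 185 to 5540. Muc2, the main mucin of goblet cells, was at 19.8, 17.9 and 17.8 CPM in 6J livers, against 0.386, 0.236 and 0.311 CPM in 6NJ livers (log2 difference 5.89 ± 0.19, adjusted p = 6.8e-08). All 3 6J pools lay far above all 3 6NJ pools for both genes. Lct, the lactase, was at 10.8, 9.98 and 10.7 CPM in 6J livers, against 0.232, 0.118 and 0 CPM in 6NJ livers. Against a count of 0 in 6NJ livers, Reg3b, an antimicrobial lectin of enterocytes, was at least 137-fold higher, Enpp7, the alkaline sphingomyelinase, at least 101-fold and Rbp2, the retinol carrier of enterocytes, at least 96.7-fold.

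Sis was between 17.0 and 19.4 CPM in the 4 Tg pools and at 0 in the 3 KO pools. Other members varied more among pools: Vil1, an actin bundler of microvilli, was at 22.7, 15.3, 166 and 20.1 CPM in Tg livers, against 0.196, 0.209 and 0.474 CPM in KO livers. The excluded 6J pool 2 had 9.56 CPM of Sis and 16.6 CPM of Muc2. In the cultured hepatocytes of the series Sis was at most 0.0383 CPM, but not every member was low there. Vil1 was between 17.6 and 77.2 CPM in hepatocytes, against 9.27 to 12.9 CPM in the 3 6J livers, and Cdh17, an intestinal cadherin, between 12.3 and 22.8 CPM in hepatocytes, against 2.74 to 5.40 CPM in the 3 6J livers. Of the 35 tested members, 8 had a higher mean in hepatocytes labelled Tg and 5 in wild-type hepatocytes than in 6J livers. Not every intestinal gene took part. Lgr5, the stem cell receptor, differed by -0.05 on the log2 scale and did not pass the test, and the transcription factors Cdx1, Cdx2 and Isx were too low to test. The summed level of the list was between 699 and 831 CPM in 6J livers and between 445 and 508 CPM in 6NJ livers. In bulk tissue, fewer cells of a type and less RNA per cell cannot be told apart. Igha, the heavy chain of immunoglobulin A, was at 10.0, 8.71 and 10.4 CPM in 6J livers, against 3.4, 3.13 and 2.77 CPM in 6NJ livers. The B and plasma cell markers did not rise as a list, with 3 of 10 higher, Igha included, and 4 lower. Igkc, the kappa light chain, was lower in 6J livers, with a log2 difference of -2.18 (adjusted p = 0.0016 by edgeR, and 0.0634 with length offsets). Krt19, a keratin of bile duct and intestinal epithelium, was at 3.99, 5.07 and 4.93 CPM in 6J livers, against 0.695, 1.33 and 1.27 CPM in 6NJ livers. Krt19 is on the list of cholangiocyte markers, of which 2 of 12 were higher and 2 lower. The lower ones were Krt8, a keratin of simple epithelia (log2 difference -1.14), and Sox9, a transcription factor of bile duct (-1.25). The part of intestinal material in these values was not tested.

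Beyond that block, single genes were far higher in 6J livers. Genes in the next paragraphs other than Dach2, H2-Ea-ps, Ntrk2, Pnck, Ankrd60 and Hadhb were chosen after their values were seen. Cyp46a1 (chr12:108334377-108362231), cholesterol 24-hydroxylase, known mainly from neurons, was at 266, 230 and 115 CPM in 6J livers, against 9.58, 4.42 and 6.47 CPM in 6NJ livers (log2 difference 4.90 ± 0.37, adjusted p = 1.3e-05, edgeR). All 6J pools lay above all 6NJ pools. The Tg livers, sequenced with 6J, did not share that level: Cyp46a1 was at 2.73, 174, 80.5 and 2.23 CPM in Tg livers, against 6.31, 5.70 and 4.43 CPM in KO livers, so 2 Tg pools stood high and 2 low. Corin, a membrane protease that activates natriuretic peptide, was also high in Tg pools 2 and 3 and low in Tg pools 1 and 4. It was at 23.3, 32.6 and 30.6 CPM in 6J livers, against 0.386, 0.236 and 0.226 CPM in 6NJ livers, and at 0.874, 34.9, 11.5 and 0.922 CPM in Tg livers, against 1.11, 1.64 and 1.39 CPM in KO livers.

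Dach2, a nuclear cofactor of the dachshund family, was at 6.04, 4.25 and 9.27 CPM in 6J livers, against no count in 6NJ livers, at least 207-fold higher in 6J livers. Sema3e, a secreted guidance factor, was at 12.1, 7.45 and 12.7 CPM in 6J livers, against 0.154, 0.0885 and 0.170 CPM in 6NJ livers. The excluded pool 2 had 0.553 CPM of Dach2 and 0.908 CPM of Sema3e, well below the 3 pools kept. H2-Ea-ps, the class II gene that C57BL/6 mice carry in an inactive form, was at 8.83, 3.25 and 5.05 CPM in 6J livers, against no count in 6NJ livers, at least 181-fold higher. It was at 11.2, 7.54, 0 and 0 CPM in Tg livers, where 2 pools therefore matched 6NJ livers, and at 0 in KO livers. Gbp11, an interferon-inducible GTPase with 19% of words shared, was at 35.9, 57.6 and 76.9 CPM in 6J livers, against 1.81, 3.19 and 2.60 CPM in 6NJ livers. Ntrk2, the receptor of brain-derived neurotrophic factor, was at 12.2, 12.3 and 14 CPM in 6J livers, against 4.37, 1.59 and 3.34 CPM in 6NJ livers, with 57 CPM in pool 2 and between 40.0 and 102 CPM in Tg livers.

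Among unique genes lower in 6J livers, several were absent or nearly so. Pnck (chrX:73655994-73660117), a calcium/calmodulin-dependent kinase, was at 0.171, 0 and 0 CPM in 6J livers, against 625, 800 and 518 CPM in 6NJ livers. This is 3 counts in 6J livers against 61660 in 6NJ livers, 11387-fold lower with a 95% exact counting interval of 3896 to 55218. Pnck was between 0 and 0.814 CPM in Tg livers and between 523 and 975 CPM in KO livers. Ankrd60 (chr2:173568666-173578365), an ankyrin-repeat gene, had no count in 6J livers, against 83.2, 159 and 82.9 CPM in 6NJ livers, at least 1906-fold lower. Sdk1, an adhesion molecule of the immunoglobulin family, was at 0.228, 0.386 and 0.587 CPM in 6J livers, against 117, 127 and 95.2 CPM in 6NJ livers (log2 difference -8.13 ± 0.26, adjusted p = 6.2e-08). For each of these 3 genes every 6NJ pool lay far above every 6J pool.

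Other unique genes lower in 6J livers ranged from a few CPM to over 100 CPM in 6NJ livers. Prickle2, a planar polarity protein, was at 5.41, 5.51 and 4.93 CPM in 6J livers, against 84.4, 109 and 86.0 CPM in 6NJ livers. Zbtb10, a zinc finger repressor, was at 10.6, 9.10 and 8.04 CPM in 6J livers, against 95.7, 98.9 and 112 CPM in 6NJ livers. The spread within either group was a small part of these differences, and the excluded pool 2, at 6.91 CPM of Prickle2 and 8.73 CPM of Zbtb10, sided with the other 6J pools. Elovl4, an elongase of very long fatty acids, had 1 count in 6J livers, against 5.25, 5.57 and 9.59 CPM in 6NJ livers. Dio1, the deiodinase that activates thyroid hormone in liver, was at 2.05, 6.07 and 5.69 CPM in 6J livers, against 114, 102 and 113 CPM in 6NJ livers (log2 difference -4.56 ± 0.33, adjusted p = 9.4e-06). Pool 2, however, had 71.6 CPM of Dio1, and with it kept the log2 difference was -2.42 (adjusted p = 0.116). Pool 2 also differed in sex-linked RNA, and the part of sex in its values was not tested. Hadhb, a subunit of the mitochondrial trifunctional protein of fatty acid oxidation, was at 16.1, 19.1 and 24.5 CPM in 6J livers, against 109, 106 and 114 CPM in 6NJ livers (log2 difference -2.46 ± 0.16, adjusted p = 5.2e-06).

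Metabolic pathways moved much less than these single genes. Fatty acid and triglyceride synthesis held the most rises among the metabolic lists: of 22 genes tested, 9 were higher and 3 lower in 6J livers, with a median log2 difference of 0.41, and of its 20 unique members 9 were higher and 1 lower. Over all unique genes 8.57% were higher and 7.19% lower in the fit of all genes. The list summed to between 14937 and 21280 CPM in the 3 6J pools kept and between 11100 and 12689 CPM in 6NJ livers. Pool 2 had 11875 CPM, within the 6NJ range. Between Tg and KO livers the median log2 difference of the list was 0.05, and Thrsp differed by -0.59 without passing the test. Fasn, the fatty acid synthase, was at 1913, 1978 and 2228 CPM in 6J livers, against 1074, 868 and 875 CPM in 6NJ livers (log2 difference 1.12 ± 0.14, adjusted p = 0.00038). Acss2, which makes cytosolic acetyl-CoA from acetate, was at 220, 222 and 255 CPM in 6J livers, against 142, 121 and 101 CPM in 6NJ livers. Acly, ATP citrate lyase, rose by 0.84 and Thrsp, a regulator of lipogenesis, by 1.31 on the log2 scale. In the fit of all 14 liver libraries, pool 2 included, Acss2 (adjusted p = 0.13) and Thrsp (0.0777) did not pass. Fasn was spread in livers with changed A1cf, at 1708, 629, 1497 and 2558 CPM in Tg livers, against 584, 445 and 682 CPM in KO livers.

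The counts of the following lists stand against 7.54% higher and 14.3% lower over all tested genes, and 8.57% and 7.19% over unique genes. All these shares are from the fit of all genes. Cholesterol synthesis had 5 of 24 genes higher and 4 lower (median 0.31). Lss, lanosterol synthase, was at 108, 104 and 93.3 CPM in 6J livers, against 57.8, 67.5 and 55.1 CPM in 6NJ livers (log2 difference 0.76 ± 0.13, adjusted p = 0.0504 in the fit of all 14 liver libraries). Of 18 genes of bile acid synthesis and transport, all unique, 5 were higher and none lower (median 0.22). Abcb11, the bile salt export pump, was at 581, 591 and 595 CPM in 6J livers, against 416, 412 and 426 CPM in 6NJ livers (log2 difference 0.49 ± 0.11, adjusted p = 0.0096, and 0.0525 without 6NJ pool 2). Among 28 genes of xenobiotic metabolism 5 were higher and 3 lower, with Cyp2c29 at 2152, 1904 and 1956 CPM in 6J livers, against 1218, 1188 and 1099 CPM in 6NJ livers. Pool 2 had 1356 CPM of Cyp2c29, and in the fit of all 14 liver libraries its adjusted p was 0.124. Of 20 lipoprotein genes 2 were higher and none lower. Apob, the structural protein of very low density lipoprotein and the mRNA that A1cf helps to edit, was at 17566, 15223 and 15154 CPM in 6J livers and at 11558, 11356 and 13709 CPM in 6NJ livers, and its log2 difference of 0.39 ± 0.13 did not pass the test (adjusted p = 0.06, and 0.0102 with DESeq2, 0.0272 without a filter and 0.0323 with upper-quartile scaling). The urea cycle and amino acid catabolism list had 2 of 20 higher and 1 lower, and the nuclear-encoded subunits of oxidative phosphorylation had 6 of 28 higher and 4 lower.

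Among targets of PPARalpha and genes of fatty acid oxidation, 3 of 29 were higher and 7 lower (median 0.03). Cyp4a14, an inducible omega-hydroxylase, was at 16.8, 55.1 and 9.50 CPM in 6J livers, against 300.2, 208 and 324 CPM in 6NJ livers. With pool 2 kept, which had 358 CPM, the adjusted p for Cyp4a14 was 0.36. NRF2 and glutathione genes had none higher and 6 of 19 lower, but of the 13 unique members 1 was lower.

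Among lists of stress and immunity, the acute phase held no rise. Of 28 acute-phase genes none was higher and 11 were lower (median -0.49), and of 21 unique members 7 were lower, beside 14.3% of all tested and 7.19% of unique genes. Lrg1, a secreted glycoprotein of the acute phase, was at 374, 296 and 396 CPM in 6J livers, against 547, 888 and 1406 CPM in 6NJ livers (log2 difference -1.41 ± 0.28, adjusted p = 0.0069). The 6NJ pools were spread for these genes: Lcn2, lipocalin 2, was at 7.41, 10.1 and 7.22 CPM in 6J livers, against 26.1, 65.7 and 375 CPM in 6NJ livers. Pool 2 had 53.4 CPM of Lcn2, and with it kept the adjusted p was 0.059. The acute-phase list summed to between 22232 and 23258.5 CPM in the 3 6J pools kept and to 27862.6 CPM in pool 2. Its sum in 6NJ livers was between 20583 and 40982.7 CPM. Between Tg and KO livers the list went the other way, with a median log2 difference of 0.35. Of 16 heat shock chaperones 1 was higher and 8 lower, though among 7 unique members 1 was higher and 1 lower. In the unfolded protein response 2 of 22 genes were higher and 1 lower, and Hsp90b1, a chaperone of the endoplasmic reticulum, was at 606, 699 and 594 CPM in 6J livers, against 262, 370 and 364 CPM in 6NJ livers. Asns, asparagine synthetase, was at 0.285, 0.662 and 0.411 CPM in 6J livers, against 2.82, 15.7 and 9.33 CPM in 6NJ livers. The order was the opposite in livers with changed A1cf, with 3.93, 3.42, 8.11 and 7.33 CPM of Asns in Tg livers, against 0.196, 0.209 and 0.203 CPM in KO livers.

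Interferon-stimulated genes had 1 of 30 higher and none lower, and the circadian clock 1 of 19 higher and none lower, both under the shares of all tested genes. Of 21 immediate early genes 3 were higher and 1 was lower. Klf2, a transcription factor of endothelium and lymphocytes, was at 6.55, 7.61 and 7.33 CPM in 6J livers, against 26.6, 22.7 and 23.6 CPM in 6NJ livers (log2 difference -1.76 ± 0.13, adjusted p = 1.4e-05). Egr1, an early growth response factor, was the opposite and less even, at 81.3, 284 and 26.0 CPM in 6J livers, against 27.6, 30.7 and 25.3 CPM in 6NJ livers. Without 6J pool 3 the adjusted p of Egr1 was 0.125, and without each 6NJ pool in turn it was between 0.11 and 0.123.

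**Figure D5:**
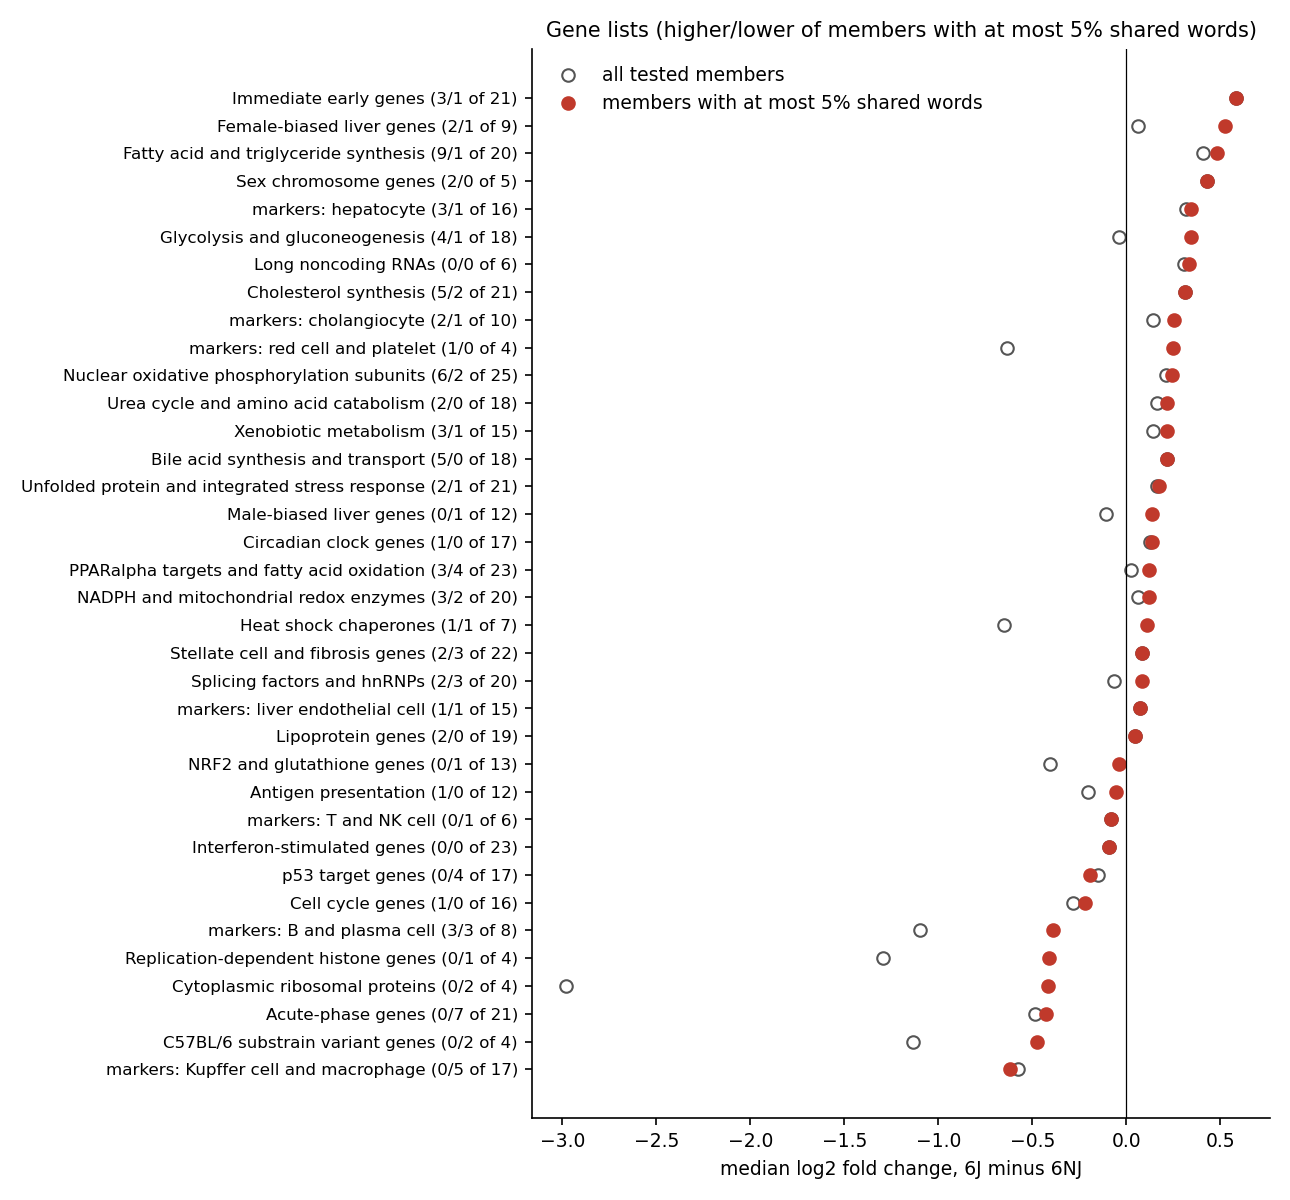
Median log2 difference, 6J minus 6NJ, of each gene list over all tested members (open circles) and over unique members (filled circles), with counts of unique members higher and lower in the labels. Lists of ribosomal proteins and histones lie far below 0 over all members, at -2.98 (49 tested of 50 listed ribosomal protein genes) and -1.29, and nearer to 0 over unique members, both at -0.41, while most metabolic lists lie just above 0.

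Markers of liver cell types were compared as a check of tissue composition. Hepatocyte markers were high in both groups, with a summed level between 143027 and 148212 CPM in 6J livers and between 107377 and 113808 CPM in 6NJ livers, and 4 of 19 were higher and 3 lower. Tg livers, sequenced with 6J, did not share the 6J level. The list summed to between 104732 and 118698 CPM in Tg livers and between 100393 and 105873 CPM in KO livers. Of 20 markers of Kupffer cells and macrophages 1 was higher and 6 were lower (median -0.58), beside 7.54% higher and 14.3% lower over all tested genes, with a sum between 443 and 517 CPM in 6J livers and between 546 and 757 CPM in 6NJ livers. C1qb, a chain of complement C1q made by macrophages, was at 22.7, 26.1 and 24.2 CPM in 6J livers, against 52.6, 45.1 and 42.0 CPM in 6NJ livers (log2 difference -0.94 ± 0.13, adjusted p = 0.00079). The excluded pool 2 had 46.3 CPM of C1qb, like 6NJ livers, and with it kept the adjusted p was 0.065. Over the whole macrophage list pool 2 summed to 771 CPM, above every 6NJ pool. In livers with changed A1cf the list went the other way, with a median log2 difference of 0.41, Tg minus KO. Its sum was between 667 and 1134 CPM in Tg livers and between 575 and 655 CPM in KO livers. Endothelial markers had 1 of 17 higher and 1 lower, and cholangiocyte markers 2 of 12 higher and 2 lower. Among B and plasma cell markers 3 of 10 were higher and 4 lower. Most markers of T and NK cells, neutrophils, skeletal muscle, adipocytes and exocrine pancreas were too low to test, with between 1 and 6 tested per list.

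Livers with changed A1cf gave a separate set of libraries with the same difference of sequencing study, to which the A1cf genotype adds. Between Tg and KO livers 5773 of 15363 tested genes differed (37.6%), 16.9% being higher and 20.7% lower in Tg livers. Of the 535 genes at least 8-fold lower in 6J livers, 493 could be tested there and 451 were lower in Tg livers (91.5% of the 493, and 14.2% of all genes lower in Tg livers), while 2 were higher. Of the 102 genes at least 8-fold higher in 6J livers, 94 could be tested and 89 were higher in Tg livers (94.7% of the 94, and 3.42% of all genes higher in Tg livers), while 1 was lower. For all called genes the shares were smaller: 76.1% of 2044 lower genes and 52.6% of 1102 higher genes were called the same way. Among unique genes at least 8-fold different, 54 of 57 higher genes were higher in Tg livers and 32 of 45 lower genes were lower in Tg livers. Of the genes named by the rules given under the methods, 152 were called between 6J and 6NJ livers and tested between Tg and KO livers. Called the same way were 92 of them and the opposite way 6. No wild-type substrain was sequenced in both studies, so these counts do not separate substrain from study.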

How the data were processed

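Whole-liver polyadenylated RNA from pools of mice was sequenced on a HiSeq 2000, per the labels' protocols. Reads were aligned to GRCm38 with STAR 2.0.4b and counted per gene with featureCounts 1.45 of Subread, per the submitters' processing notes. The deposited values are raw read counts per gene with no normalization by the authors, in one table per library of 41388 genes. How reads that fit several places were counted is not given in the sources used here. Counts were summed to library totals, scaled by TMM, filtered with filterByExpr (minimum count 10, minimum total 15) and tested with edgeR 4.0.16 in R 4.3.3 by the quasi-likelihood test, two-sided, on 3 6J pools against 3 6NJ pools with no covariate. Standard errors are those of the log2 difference, computed as its absolute value divided by the square root of the test's F statistic. Changes beyond 2-fold were tested with glmTreat, and adjusted p-values are by Benjamini-Hochberg over all 14811 genes tested, with 0.05 as the threshold. The fitting code was also run on simulated counts with the same dispersion for every gene, a simpler setting than these data. CPM values are counts scaled to a fixed library total, computed here from the deposited counts.

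Shared sequence was measured as the percentage of 50-base words in a gene's longest transcript (GENCODE M21, 99.3% of tested genes matched) that occur in a transcript of another gene. Patch scaffolds were placed by matching their genes to chromosomal genes of the same length and strand within 2000 bases. Genes at 0 in a group are given against a floor of 3 counts over the group, and 95% intervals of ratios are exact and, like the floor, cover counting error only. Named genes were all members of the substrain list, the 15 largest rises and 15 largest falls with at least 2 CPM in the higher group and no overlap, up to 4 members of each gene list with the smallest p, and Acta1, A1cf and Apob. Others are said to have been chosen after their values were seen. In the paragraphs on spans, shared sequence and mitochondria this also holds for Gm28661, Gm10359, Rpl19-ps11 and the mitochondrial genes other than mt-Co2, mt-Co3, mt-Atp6, mt-Rnr1 and mt-Rnr2, for Aldoa and Tpi1, and in the intestinal paragraphs for Muc2, Lct, Vil1, Cdh17 and Lgr5. The libraries, gene lists and tests were chosen with earlier results of these data known. Alternatives covered scaling, filters, DESeq2 1.42.0, pool 2, all liver libraries, length, unique genes and leaving out each pool. Some genes are not reported here.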

Additional observations from a re-analysis of the deposited data

Results flagged for a closer look

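In groups of 4 libraries, a pool was picked out where its gap to the nearest other pool took up most of the range of the group. Chance picks about 1 in 20 groups, and 43 gene lists, some sharing members, were searched, so some flags can arise by chance. Among the 4 6J pools, most of these flags fell on pool 2, the pool left out for its Acta1 level, which was made from pooled mice like the others. Pool 2 had a summed 2673.0 CPM of skeletal muscle markers, against 5.81 to 8.15 CPM in the other 6J pools. Its female-biased liver genes summed to 4543.2 CPM (170 to 391.5 CPM in the others) and its sex chromosome genes to 935.6 CPM (139.9 to 162.3 CPM). Pool 2 also stood apart in stellate cell and fibrosis genes, at 1044.9 CPM (645.8 to 710 CPM), in T and NK cell markers, at 23.46 CPM (9.86 to 11.2 CPM), and in xenobiotic metabolism, at 17966.9 CPM (21034.2 to 21280.1 CPM). Pool 1 had a summed 1269.8 CPM of heat shock chaperones, against 1584.6 to 1629.3 CPM in the other 6J pools, pool 2 included.

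Counts on patch scaffolds, which no comparison used, ranged from 25 to 52 in the 6J liver pools, while each 6NJ pool had 0.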

How the results depend on the processing

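Against 3228 genes that differed, the fit with a replicate block called 1488 (300 higher, 1188 lower). The deviations of same-numbered pools had a correlation of -0.04 for number 1 and -0.02 for number 3. Pools of other numbers ranged from -0.088 to 0.091. With so few pairs these values cannot decide whether the numbers pair samples. Unique protein-coding genes fitted on their own, an alternative chosen after seeing the data, gave 1351 genes that differed (521 higher, 830 lower). At least 8-fold different were 111 (58 higher, 53 lower), and 147 lay beyond 2-fold. Of the 1351, 1305 were also called among the 1785 such genes in the fit of all genes. The balance of directions among unique genes depended on the fit, since the fit of all genes called 973 higher and 816 lower. Leaving out one pool in turn gave between 1943 and 3600 genes that differed, between 605 and 836 by at least 8-fold and between 866 and 1001 beyond 2-fold, with the lowest first count without 6NJ pool 2. Without a filter 1088 genes differed by at least 8-fold, and with a mean of at least 1 CPM 369 did and 629 lay beyond 2-fold, fewer or more genes being tested; without a filter the median of all genes moved by -0.108. Other settings kept these counts within 1.5 times: DESeq2 gave 3454 genes, the fit including 6J pool 2 gave 3052 and all 14 liver libraries in one fit 3667. Of genes called the same way between Tg and KO livers, the count stayed between 86 and 98 (main value 92). Of the genes named with a value, Aldoa, not called, reversed: its log2 difference was 0.031 with upper-quartile scaling, 0.361 with 6J pool 2 included, 0.362 with all 14 liver libraries and between -0.131 and 0.0291 without one pool, highest without 6J pool 3. Abcb11, Ndufv1, mt-Co1, Ddx3y and Egr1 lost their call without one pool. With the replicate block Fasn, Acss2, Thrsp, Acly, Abcb11, Cyp2c29, Lrg1, Ddx3y, Krt8, mt-Co1 and Ndufv1 lost theirs (adjusted p between 0.057 and 0.307). Depth limits the genes at or near 0: a count of 0 in 6J livers allows up to 0.0569 CPM.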
